A study of Mus musculus with 32 samples.

Results

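The comparison asked whether pristane changed the same genes by the same amount in the mesentery of BALB/c and DBA mice at day 3. It was made on 12 of the 32 arrays of the series: 3 of BALB/c mice treated with pristane for 3 days, 3 of untreated BALB/c controls, 3 of DBA mice treated for 3 days and 3 of untreated DBA controls. All 12 carry codes of a single series of title codes, chosen by strain, agent, time and code. The measure is the difference of responses: the log2 change of BALB/c day 3 arrays over their controls, minus the log2 change of DBA day 3 arrays over theirs. A positive value means that a gene rose more, or fell less, in BALB/c than in DBA.

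Treated mice had received 0.5 ml of pristane (TMPD, a branched mineral-oil hydrocarbon) intraperitoneally, and total RNA was extracted from mesentery, the sheet of peritoneum with fat, blood vessels and lymphoid tissue from which the gut hangs. Controls were left untreated. The labels give no age, sex or substrain, and the strains are written here as labelled, BALB/c and DBA. Further arrays of the series, of BALB/DBA F1 hybrid mice at day 3 and of both parental strains at day 18, were used only to look at the same genes on arrays outside the comparison.

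Pristane cannot be broken down by mice, and oil droplets taken up by phagocytes set off a lasting granulomatous inflammation on the peritoneal surfaces. BALB/c mice are known for plasma cell tumours that arise in this tissue after pristane, and DBA/2 mice are largely resistant to them. Pristane is also known to induce type I interferon, which signals through the receptor chains Ifnar1 and Ifnar2 and factors such as Stat2 and Irf9 to switch on a large set of antiviral genes. Type II interferon (interferon gamma) signals through Ifngr1 and Ifngr2 and overlaps with it in its target genes.

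The 12 arrays had median signals of 91.5 to 100.1, and their number limits the precision. Over the 13016 genes tested, 1 probe set each, the correlation of log2 signals was 0.976 to 0.988 within a group and 0.883 to 0.970 between groups. Xist, which is transcribed from the inactive X chromosome of females, was bright on all 12 arrays (16852 to 26178). Adipoq, an adipocyte hormone, was at 18758 or higher on every array, and Upk3b, a mesothelial membrane gene, at 5220.0 or higher, both defining markers of cells of the labelled tissue. For beta-actin, the signal of the 3' probe set over that of the 5' one, a measure of RNA integrity, averaged 1.88 ± 0.30 on BALB/c day 3 arrays, with 2.42 ± 0.275 on their controls. It was 1.92 ± 0.0870 in DBA day 3 and 2.44 ± 0.381 in DBA control arrays (SD, n = 3 each), and so lower with treatment in both strains; its part in the results was not tested. Arrays stood apart in markers of other tissues. On BALB/c day 3 replicate 2 the mean log2 signal of the pancreatic acinar markers was 8.91, against 5.49 to 6.30 on the other 11 arrays, and on DBA control replicate 3 that of the intestinal epithelial markers was 8.14, against at most 7.0 on the others. Whether each array had its own animal is not in the labels. The p-values therefore reflect spread between arrays, part or all of which may be technical.

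Of 13016 genes tested, 48 had a higher response in BALB/c than in DBA, which is 0.369% of the genes, and 16 had a lower response, 0.123% (limma, Benjamini-Hochberg adjusted p under 0.05). The difference was at least 2-fold for 40 of the 48 and for 9 of the 16, and the median difference over all genes was -0.01 (quartiles -0.20 and 0.20). At an unadjusted p under 0.05 there were 1285 genes. By itself, the BALB/c response had 2385 genes higher (18.3%) and 2242 lower (17.2%), and the DBA response had 2131 higher (16.4%) and 1743 lower (13.4%). The strain difference was thus called for few genes. Among the lists examined the interferon-induced genes held the most calls: 16 of the 48 belong to a list of such genes, and 0 of the 16 lower ones do. Of the type I interferon list 38.2% were called higher, against 0.369% of all genes. Another 30 of the 48 are in no list, and the lists were chosen with earlier results of these data known. In whole tissue, fewer cells of a type and less RNA per cell cannot be told apart.

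The number of calls differed widely between fits. The counts above come from 1 model over all 32 arrays. With the 12 arrays alone the model called 220 genes higher and 173 lower, with the 18 arrays of the code series 195 and 131, and with array weights 478 and 451. An ordinary linear model on the 12 arrays, with no sharing of the spread between genes, called 22 and 32, but these were largely other genes: it kept 18 of the 64 calls and lost 46 (adjusted p = 0.0523 to 0.141). Among the genes of an interferon list it kept Oas3, Oas2, Dhx58 and Slfn1 only. Plain log2 kept 45 of the 64 and lost 19 (adjusted p = 0.0509 to 0.55), quantile normalization kept 50 and averaging the probe sets of each gene 52. A BALB/c control array of the day 18 code series, replicate 2, was bright in pancreatic genes, and without it the counts were 131 and 69 (chosen after seeing the data). Leaving out 1 of the 12 arrays gave 17 higher genes without DBA day 3 replicate 3 and at most 57 without BALB/c day 3 replicate 2, and 5 lower genes without BALB/c day 3 replicate 1 and at most 15 without DBA control replicate 1. The higher count was 27 or fewer without BALB/c day 3 replicate 1 or 3, BALB/c control replicate 1 or 2, DBA day 3 replicate 2 or 3, or DBA control replicate 2. The lower count was 10 or fewer without any of these 7, BALB/c control replicate 3 or DBA day 3 replicate 1. No called gene changed sign under any of the 28 alternatives, 17 of the 64 kept their call whichever single array was left out, and 11 kept it under every alternative that gave them a value: Pla2g2e, Oas3, Slfn1, Dhx58, Oas2, Pttg1, Tmem86a, Akap7, Akr1e1, Fcrls and Rarres1.

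**Figure D1:**
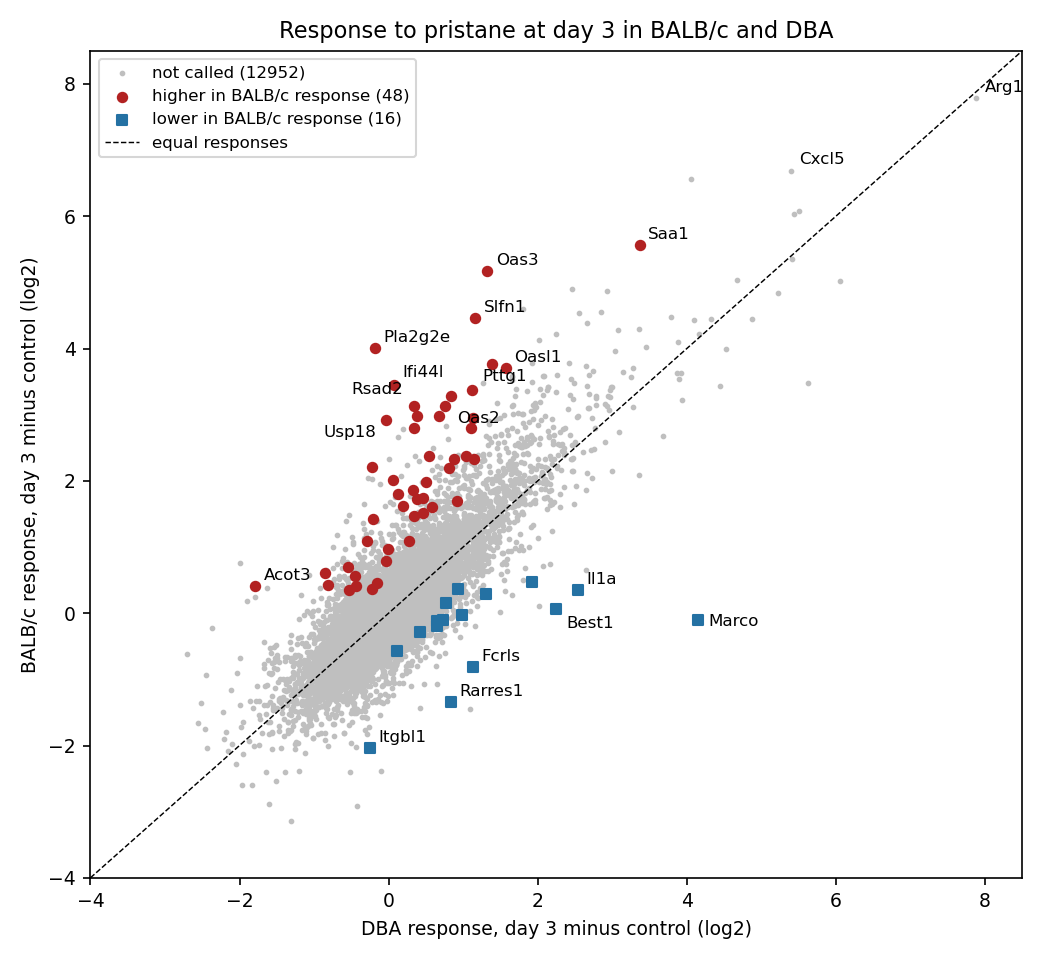
Log2 response to pristane at day 3 of 13016 genes, BALB/c on the vertical axis and DBA on the horizontal axis, each as the mean of 3 treated arrays minus the mean of 3 control arrays. The 48 genes with a higher BALB/c response (red circles) lie above the dashed line of equal responses and the 16 with a lower one (blue squares) below it; Arg1, at 7.78 and 7.88, lies close to the line.

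The 64 genes differed in how the responses differed. Of the 48 higher ones, 25 rose in BALB/c and were not called in DBA, 16 rose in both strains and more in BALB/c, 5 rose in BALB/c and fell in DBA, and 2 fell in DBA alone by the calls. Of the 16 lower ones, 10 rose in DBA and were not called in BALB/c, 3 fell in BALB/c and rose in DBA, 2 fell in BALB/c and were not called in DBA, and Klf3 rose in both. The treated strains differed in 43 of the 64 genes, against 9.10% of all genes, and the untreated strains in 33, against 7.68% of all genes. In 31 the treated strains differed and the controls were not called, in 21 the controls differed and the treated arrays were not called, and in 12 both differed. The difference of responses is built from these same arrays, so the counts describe it and do not test it.

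Among the lists examined, the interferon-induced genes held the most called differences. Of 34 type I interferon-stimulated genes tested, 13 had a higher BALB/c response and 0 a lower one, and the median difference was 1.41 against -0.01 over all genes. In BALB/c 33 of the 34 rose and 1 fell (median 1.94), and in DBA 16 rose and 0 fell (median 0.58). Of all genes 18.3% rose in BALB/c and 16.4% in DBA. The mean log2 signal of the list was 11, 10.6 and 11.4 on the BALB/c day 3 arrays, against 8.94, 8.90 and 9.09 on the BALB/c controls, and 9.56, 9.50 and 9.30 on the DBA day 3 arrays, against 8.76, 8.99 and 8.94 on the DBA controls. The lowest BALB/c day 3 array was thus above the highest DBA day 3 array by more than 1 log2 unit, and BALB/c day 3 replicate 3 was the highest of all. Without that replicate, or without DBA day 3 replicate 3, 6 list genes were called, and 7 without BALB/c day 3 replicate 1, BALB/c control replicate 1 or 2, or DBA control replicate 2. The highest count was 16, without BALB/c day 3 replicate 2. Between untreated strains the median difference was 0.32, with 4 of 34 called.

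All 5 oligoadenylate synthetases and related genes tested had a higher BALB/c response. These enzymes make a short RNA-like messenger in the presence of double-stranded RNA that turns on RNase L, whereas mouse Oasl1 and Oasl2 are relatives with regulatory roles. Oas3 had signals of 1630.4, 1023 and 1786 on the BALB/c day 3 arrays, against 18.1, 11.5 and 18 on the BALB/c controls, and 141, 75 and 34.8 on the DBA day 3 arrays, against 22.5, 14 and 9.3 on the DBA controls. It was dim on all 6 controls, bright on all 3 treated BALB/c arrays and in between on treated DBA arrays, where 2 of 3 stayed under 103.7, the median signal of all values. The difference of responses was 3.85 ± 0.55 on the log2 scale (SE; adjusted p = 0.000462), and since the controls were dim its size depends on the offset of 24.9 added before the log.

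Oas2 had signals of 3079, 2213 and 3466 on the BALB/c day 3 arrays, against 336, 321 and 266 on the BALB/c controls, and 434, 338 and 271 on the DBA day 3 arrays, against 212, 186 and 181 on the DBA controls. Both strains rose, by 3.13 in BALB/c and 0.75 in DBA, and the difference was 2.38 ± 0.31 (SE; adjusted p = 0.000157). Oas1a differed by 1.82 ± 0.37, Oasl1 by 2.13 ± 0.41 and Oasl2 by 1.33 ± 0.30, each having risen in both strains. Without BALB/c day 3 replicate 3 the call ended for Oasl1 (1.90, adjusted p = 0.058), Oas1a (1.61, adjusted p = 0.065) and Oasl2 (1.10, adjusted p = 0.13). Leaving out other single arrays ended the call of Oasl1 once (without DBA day 3 replicate 3: 1.92, adjusted p = 0.060), and ended it for Oas1a in 6 and for Oasl2 in 10 of the 12 cases in all, with the difference staying at 1.10 or more.

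Among the effectors, Usp18, which removes ISG15 from proteins and dampens interferon receptor signalling, had signals of 2461, 1320.4 and 3449 on the BALB/c day 3 arrays, against 248, 250.3 and 337 on the BALB/c controls, and 229, 229 and 146 on the DBA day 3 arrays, against 246, 188 and 182 on the DBA controls. DBA day 3 arrays were within or below the range of their controls, and the difference was 2.95 ± 0.42 (SE; adjusted p = 0.000462). Ifit1, which binds foreign 5' ends of RNA, had signals of 5018, 3279 and 7418 on the BALB/c day 3 arrays, against 566, 549 and 729 on the BALB/c controls, and 610.1, 577 and 404 on the DBA day 3 arrays, against 339.8, 387 and 466 on the DBA controls. It rose in BALB/c by 2.97 and was not called in DBA (0.38, adjusted p = 0.371), a difference of 2.59 ± 0.43 (SE; adjusted p = 0.00338). The calls of Usp18 and Ifit1 held whichever array was left out, and ended in the ordinary linear model (adjusted p = 0.0523 for both).

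Rsad2 (viperin), which makes a chain-terminating nucleotide, had signals of 5335, 2687 and 7475 on the BALB/c day 3 arrays, against 424, 461 and 723 on the BALB/c controls, and 1275, 885 and 1146 on the DBA day 3 arrays, against 426, 1601 and 909.8 on the DBA controls. One DBA control array, replicate 2, was above every DBA day 3 array. The difference was 2.79 ± 0.58 (adjusted p = 0.0230), and leaving out single arrays ended the call in 8 of 12 cases, with adjusted p up to 0.086 and a difference of at least 2.35. Ifit3 gave 2.44 ± 0.52 (adjusted p = 0.0240), with 2913, 1749 and 4540.2 on BALB/c day 3 arrays against 589, 545 and 654 on BALB/c controls, and 675, 780.1 and 555 on DBA day 3 arrays against 609, 908 and 859.7 on DBA controls. Its call also ended in 8 of 12 cases, with adjusted p up to 0.088 and a difference of at least 2.11. Ifi44l, an interferon-induced gene of the Ifi44 family that is in none of the lists, had 1340.4, 838 and 2424 on BALB/c day 3 arrays against 102, 106 and 111 on BALB/c controls. On DBA arrays it was dim with and without pristane, at 18.8, 4.0 and 28 in day 3 and 33.7, 2.9 and 10.8 in control arrays. The untreated strains therefore differed too (1.76, adjusted p = 0.0195), and the difference of responses was 3.38 ± 0.67 (adjusted p = 0.0173) by the probe set used and 3.36 by the other. It lost its call without BALB/c day 3 replicate 3 (2.98, adjusted p = 0.061) and without DBA day 3 replicate 2 (3.13, adjusted p = 0.060), and also with plain log2 (3.39, adjusted p = 0.313) and in the ordinary linear model (adjusted p = 0.0589). Whether the Ifi44l probe sets read the DBA form of the gene was not tested.

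Trim30a, a regulator of Toll-like receptor signalling, had signals of 3474, 2615 and 4879.5 on the BALB/c day 3 arrays, against 481, 497 and 478 on the BALB/c controls, and 914, 857 and 655 on the DBA day 3 arrays, against 347, 383 and 347 on the DBA controls. It rose by 2.80 in BALB/c and its response in DBA was 1.11, which gave a difference of 1.70 ± 0.29 (SE; adjusted p = 0.00678). Helz2, a helicase gene in none of the interferon lists, differed by 1.67 ± 0.30 (adjusted p = 0.00982). The calls of both held whichever array was left out, and ended in the ordinary linear model (adjusted p = 0.0589 and 0.0651). Rtp4, a chaperone of membrane receptors that interferon induces, gave 1.54 ± 0.31 (adjusted p = 0.0195) and lost its call in 6 of 12 cases, and Trim25, the ubiquitin ligase that acts with RIG-I, gave 0.82 ± 0.18 (adjusted p = 0.0371) and lost it in 8.

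Of 6 sensors of foreign nucleic acids, 2 had a higher BALB/c response. Dhx58 (LGP2), a RIG-I-like protein that regulates the pathway, had signals of 1018, 751 and 1305 on the BALB/c day 3 arrays, against 114, 151 and 105 on the BALB/c controls, and 198, 193 and 138 on the DBA day 3 arrays, against 129, 109.5 and 161 on the DBA controls. Its difference was 2.46 ± 0.45 (SE; adjusted p = 0.0113), and only BALB/c day 3 arrays stood apart from all others. Ddx58 (RIG-I) rose in both strains, by 1.61 in BALB/c and 0.58 in DBA, and differed by 1.03 ± 0.23 (adjusted p = 0.0324), a call that ended in 10 of the 12 cases of a single array left out. Ifih1 (MDA5) gave 1.20 ± 0.33 (adjusted p = 0.114). Cgas, a sensor of DNA, gave 0.87 ± 0.26 (adjusted p = 0.160). Neither of these passed the test.

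Of the transcription factors that carry the signal, Irf7, the amplifier of interferon production, had the largest difference of the list's uncalled genes, 2.59 ± 0.62 (adjusted p = 0.0549). Its signals were 2262, 1353 and 5008 on the BALB/c day 3 arrays, against 271, 356 and 408 on the BALB/c controls, and 390.4, 582 and 377 on the DBA day 3 arrays, against 322, 428 and 407 on the DBA controls. Stat2 differed by 0.67 ± 0.29 (adjusted p = 0.429) and Irf9 by 0.49 ± 0.27 (adjusted p = 0.579). The receptor genes showed no called difference. Ifnar1 had a difference of -0.19 (95% interval -0.60 to 0.23), with log2 responses of 0.64 in BALB/c and 0.82 in DBA. For Ifnar2 it was 0.25 (-0.48 to 0.97), for Ifngr1 -0.18 (-0.88 to 0.53) and for Ifngr2 -0.09 (-0.60 to 0.42). Over the 7 interferon and receptor genes tested the median difference was -0.06, with 0 called by limma and 0 at an unadjusted p under 0.05.

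Ifi27l2a, an interferon-induced mitochondrial gene, went the other way from the list. It had 16525, 15476 and 20796 on BALB/c day 3 arrays against 19791, 28054 and 25259.9 on BALB/c controls, and 14712, 16030.4 and 16777 on DBA day 3 arrays against 11145, 13525 and 17646 on DBA controls. It fell in BALB/c by 0.47 on the log2 scale (adjusted p = 0.0379) and the difference of responses was -0.66 ± 0.25 (adjusted p = 0.318).

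**Figure D2:**
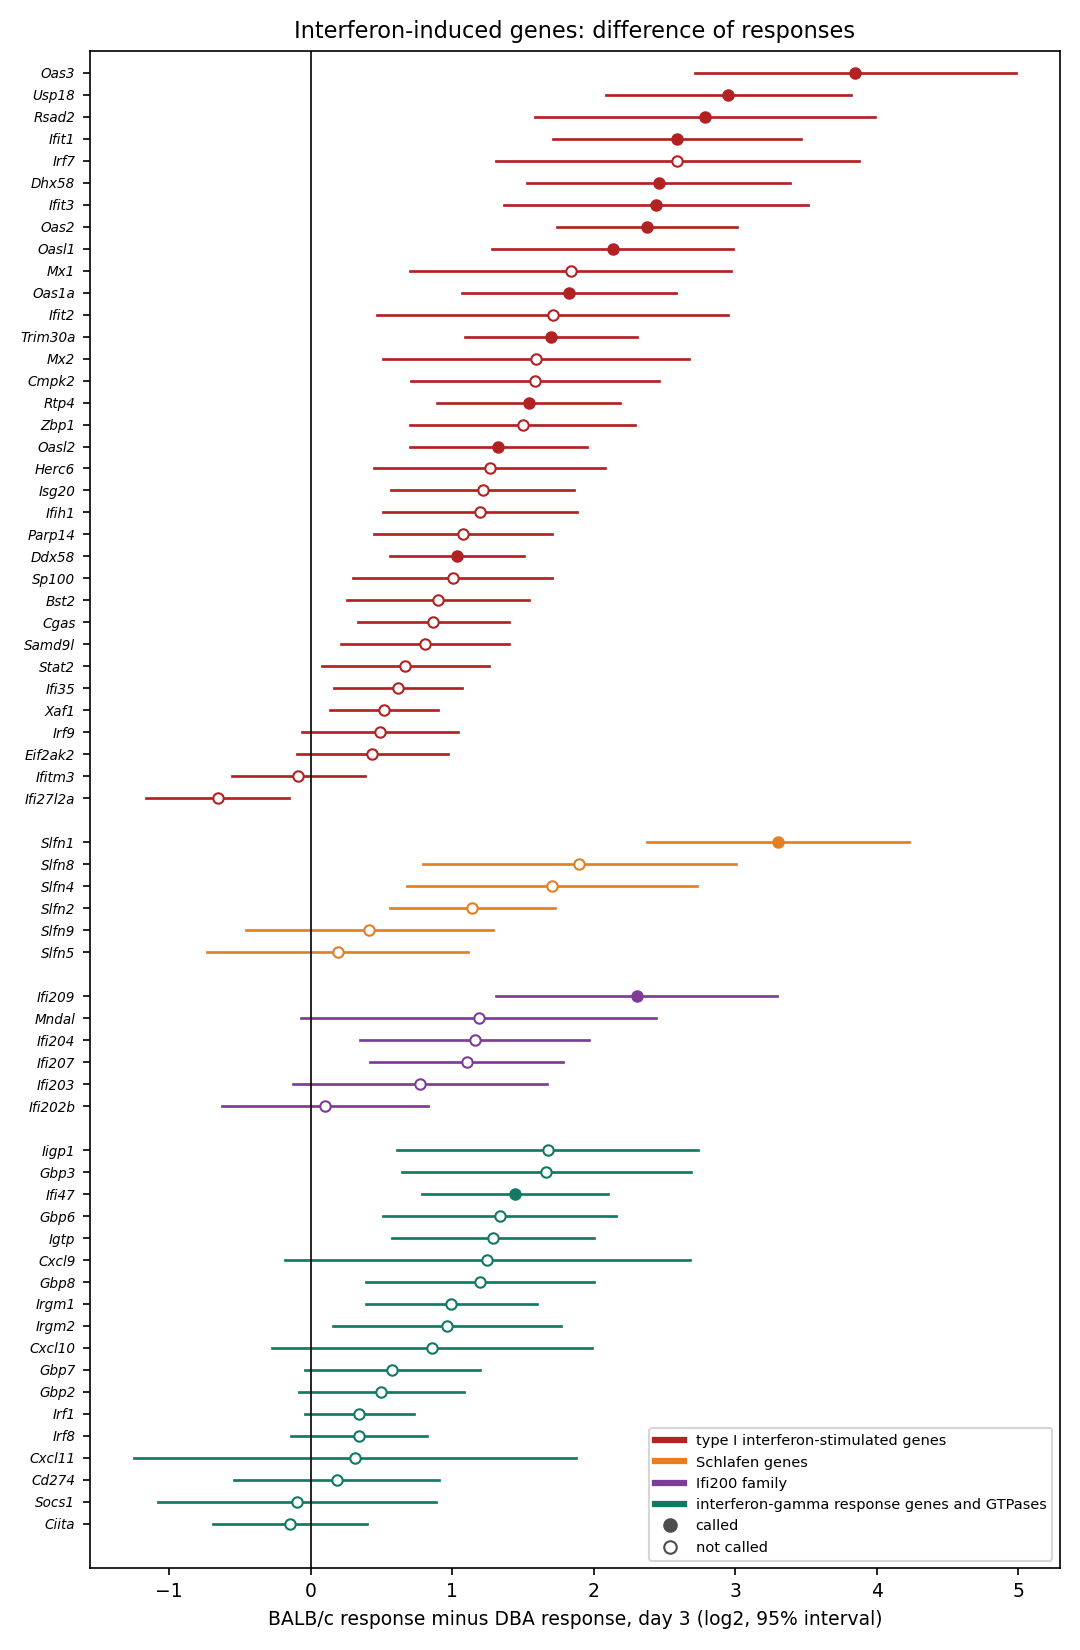
Difference of responses (BALB/c minus DBA, log2) for every tested gene of the type I interferon, Schlafen, Ifi200 and interferon gamma lists, with its 95% interval. Filled points passed the adjusted threshold (13, 1, 1 and 1 genes) and open points did not; 32 of 34 type I genes lie right of 0.

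The promoters of called genes, the 250 bases before to 50 bases after the start of transcription (RefSeq, GRCm38.p6), were searched for the core of the interferon-stimulated response element, GAAANNGAAA, on both strands. The sequences of 5 interferon-induced genes that carry it and of 2 called genes without it, Pla2g2e and Marco, which open the groups described further on, are shown to set them side by side. The windows are chr5:120777610-120777909, minus strand for Oas3; chr12:26456403-26456702, minus strand for Rsad2; chr19:34640639-34640938, plus strand for Ifit1; chr19:34583279-34583578, plus strand for Ifit3. For the others they are chr5:120907476-120907775, minus strand for Oas1a, chr4:138877692-138877991, plus strand for Pla2g2e and chr1:120504975-120505274, minus strand for Marco. Sequences run 5′ to 3′ along the gene, and capitals mark each match.
Oas3: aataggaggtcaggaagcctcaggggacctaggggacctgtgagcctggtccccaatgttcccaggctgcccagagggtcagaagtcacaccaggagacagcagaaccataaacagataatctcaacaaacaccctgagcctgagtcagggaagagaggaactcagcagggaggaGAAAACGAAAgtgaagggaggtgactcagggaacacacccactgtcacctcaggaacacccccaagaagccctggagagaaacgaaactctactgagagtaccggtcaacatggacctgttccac
Rsad2: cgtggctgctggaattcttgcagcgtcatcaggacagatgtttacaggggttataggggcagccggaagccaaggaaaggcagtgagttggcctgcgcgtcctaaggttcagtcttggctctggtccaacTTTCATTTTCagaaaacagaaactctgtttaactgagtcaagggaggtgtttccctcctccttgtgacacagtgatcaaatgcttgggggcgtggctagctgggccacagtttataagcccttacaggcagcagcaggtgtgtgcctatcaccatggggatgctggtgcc
Ifit1: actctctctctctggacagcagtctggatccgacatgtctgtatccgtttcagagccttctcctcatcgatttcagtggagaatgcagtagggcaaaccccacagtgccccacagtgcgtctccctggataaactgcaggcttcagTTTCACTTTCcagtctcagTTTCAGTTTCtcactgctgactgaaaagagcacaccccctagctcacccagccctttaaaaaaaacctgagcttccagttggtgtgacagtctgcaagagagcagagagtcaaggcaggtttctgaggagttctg
Ifit3: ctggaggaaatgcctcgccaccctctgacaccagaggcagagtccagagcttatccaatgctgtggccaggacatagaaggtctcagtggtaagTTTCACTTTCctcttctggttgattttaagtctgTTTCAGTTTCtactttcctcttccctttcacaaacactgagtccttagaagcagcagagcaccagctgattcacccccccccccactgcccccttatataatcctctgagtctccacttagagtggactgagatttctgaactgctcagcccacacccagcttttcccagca
Oas1a: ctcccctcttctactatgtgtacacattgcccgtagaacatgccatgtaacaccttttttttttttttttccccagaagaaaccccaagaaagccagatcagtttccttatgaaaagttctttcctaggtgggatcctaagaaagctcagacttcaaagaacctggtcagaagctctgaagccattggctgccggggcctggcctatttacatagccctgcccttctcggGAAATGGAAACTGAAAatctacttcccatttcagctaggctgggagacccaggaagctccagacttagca
Pla2g2e: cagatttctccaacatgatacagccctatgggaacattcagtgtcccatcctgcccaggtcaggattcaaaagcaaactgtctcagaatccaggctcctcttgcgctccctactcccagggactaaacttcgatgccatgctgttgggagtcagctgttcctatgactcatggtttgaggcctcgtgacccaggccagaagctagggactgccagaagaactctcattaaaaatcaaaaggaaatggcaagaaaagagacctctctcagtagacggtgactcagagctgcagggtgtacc
Marco: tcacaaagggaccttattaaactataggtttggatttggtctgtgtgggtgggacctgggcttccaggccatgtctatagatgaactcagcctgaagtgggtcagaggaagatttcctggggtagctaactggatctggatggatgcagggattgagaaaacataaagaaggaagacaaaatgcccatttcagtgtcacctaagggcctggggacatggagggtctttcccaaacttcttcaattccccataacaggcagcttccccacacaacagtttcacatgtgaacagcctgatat

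The match starts 75 bases before the start in Oas3 and 120 in Rsad2, at 104 and 85 before it in Ifit1, and at 156 and 122 before it in Ifit3. In Oas1a 2 matches overlap, starting 20 and 14 bases before the start. A match was found in 7 of the 9 called type I interferon genes with a promoter in the table (77.8%), in 5 of 16 uncalled genes of that list (31.2%), in 0 of 32 called genes with a higher response outside it and in 1 of 16 with a lower response (6.25%). Of all tested genes with a promoter, 391 of 10455 (3.74%) hold it. The 32 genes outside the type I list include other interferon-induced ones, among them Slfn1, Ifi209, Ifi47 and Ifi44l. The palindromic core of the interferon gamma activated site, TTCNNNGAA, was in 5 of 41 higher genes (12.2%) and 1 of 16 lower genes (6.25%), against 859 of 10455 (8.22%). Within the type I list this core was in 1 of 9 called genes (11.1%) and 6 of 16 uncalled ones (37.5%). A match describes these letters only, and promoters of 4 of the 13 called list genes, Usp18, Dhx58 and Oas2 among them, were not in the table.

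Related families had fewer calls, in shorter lists. The called share was 16.7% of Schlafen, 16.7% of Ifi200 and 5.56% of interferon gamma list genes, against 38.2% of the type I list. Of 6 Schlafen genes, which include regulators of T cell growth and of transfer RNA, 1 had a higher BALB/c response and the median difference was 1.42. Slfn1 had signals of 1865, 1329.9 and 2354 on the BALB/c day 3 arrays, against 56, 59.2 and 58.8 on the BALB/c controls, and 348, 219 and 147 on the DBA day 3 arrays, against 67.2, 119.9 and 80.1 on the DBA controls. It rose in both strains, by 4.46 in BALB/c and 1.16 in DBA, and the difference was 3.30 ± 0.45 (SE; adjusted p = 0.000298). Slfn4, found in myeloid cells, had log2 responses of 4.56 in BALB/c and 2.85 in DBA, and its difference of 1.70 ± 0.50 did not pass (adjusted p = 0.149).

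In the Ifi200 family, whose products include DNA sensors, 1 of 6 tested genes was called and the median difference was 1.13. Ifi209 had 497, 336 and 1034 on BALB/c day 3 arrays against 58.2, 54.3 and 37.8 on BALB/c controls, and 139.5, 128 and 85.9 on DBA day 3 arrays against 66.6, 65 and 59.1 on DBA controls. Its difference was 2.30 ± 0.48 (adjusted p = 0.0230), and the call ended in 6 of 12 cases, with the lowest value, 1.87 (adjusted p = 0.080), without BALB/c day 3 replicate 3. Mndal, another member of this family, was bright on every BALB/c array, at 7777, 7174 and 10598 on day 3 and 3604, 3787 and 4396 on control arrays, and dim on nearly every DBA array, at 108, 34.4 and 11.6 and 46.2, 58 and 34.1. Its strain difference was thus there before treatment (5.81, adjusted p = 6.15e-10), and the difference of responses was 1.19 ± 0.61 (adjusted p = 0.539). Ifi202b had log2 responses of 2.20 in BALB/c and 2.10 in DBA (difference 0.10, 95% interval -0.63 to 0.83). Ifi204, Ifi207 and Ifi203 had differences of 1.16, 1.10 and 0.77 and none passed. Members of this family are related in sequence, so their probe sets may read more than 1 gene. Whether the Mndal probe set reads the DBA form of the gene was not tested.

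One group of 18 holds interferon gamma targets and GTPases; 1 was called and the median difference was 0.91, or 0.49 without BALB/c day 3 replicate 3. Ifi47, an immunity-related GTPase that acts on vacuoles of intracellular pathogens, had 3957, 2389 and 4053 on BALB/c day 3 arrays against 589, 666 and 712 on BALB/c controls, and 1249, 1260.2 and 1317 on DBA day 3 arrays against 492, 981 and 651 on DBA controls. The difference was 1.44 ± 0.32 (adjusted p = 0.0324), and the call ended in 10 of 12 cases, with adjusted p up to 0.12. Its relative Iigp1 had log2 responses of 1.75 in BALB/c and 0.08 in DBA, and the guanylate-binding protein gene Gbp3 1.69 and 0.02, but neither difference passed (adjusted p = 0.178 and 0.160).

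Antigen presentation genes showed 0 called differences in 12 class I and 8 class II genes by limma, with 2 in each list at an unadjusted p under 0.05. For class I the median difference was 0.42; Tap1, the peptide transporter, had log2 responses of 1.70 in BALB/c and 0.64 in DBA (difference 1.06 ± 0.32, adjusted p = 0.169). The class II list had a median of -0.36. Cd74, the invariant chain, gave -0.86 ± 0.27 (adjusted p = 0.183) and H2-Ab1 -0.72 ± 0.39 (adjusted p = 0.583). H2-T24, a nonclassical class I gene outside these lists, was called at 1.83 ± 0.37 (adjusted p = 0.0187). It had 628, 441 and 854 on BALB/c day 3 arrays against 127, 100.2 and 76.8 on BALB/c controls, and 111, 123 and 90.7 on DBA day 3 arrays against 62.7, 73.8 and 62.6 on DBA controls. The call ended in 5 of 12 cases.

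**Figure D3:**
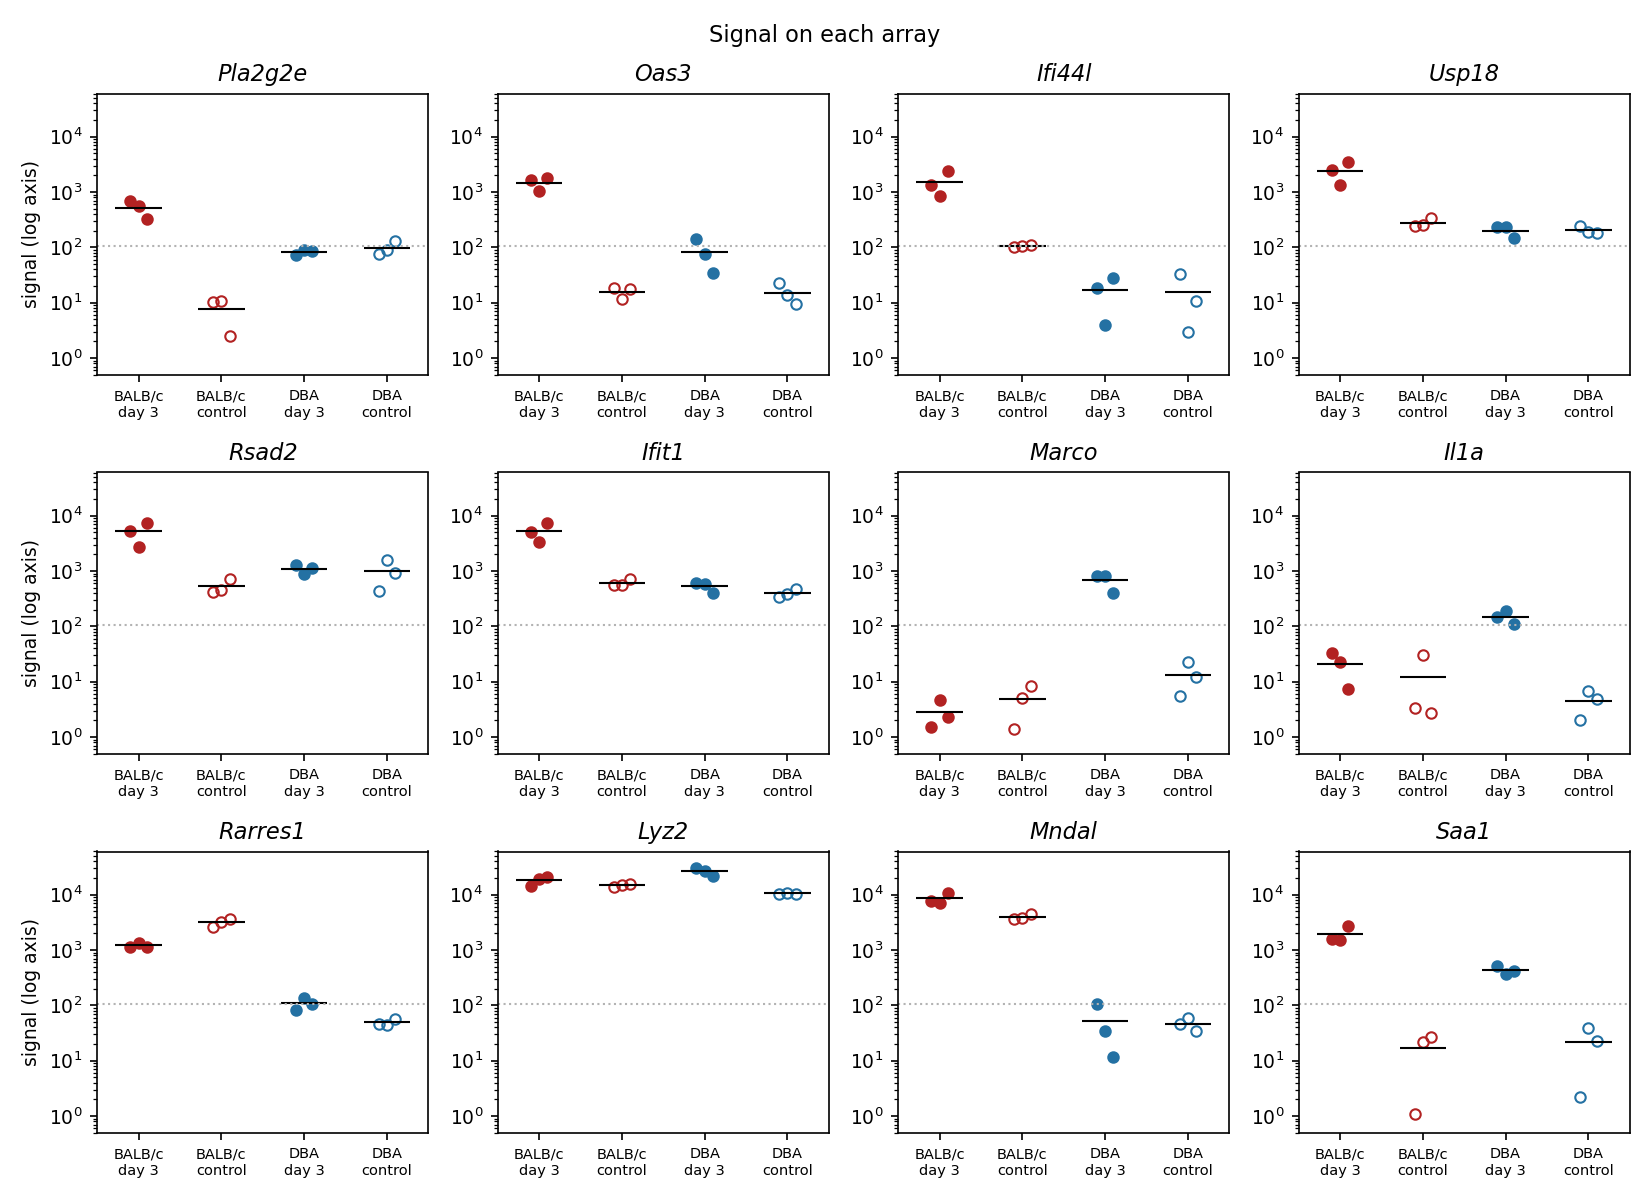
Signal of 12 genes on each of the 12 arrays (log axis), with filled points for day 3, open points for controls, a bar for the mean of 3 arrays and a dotted line at 103.7, the median of all values. Oas3, Usp18, Rsad2 and Ifit1 are highest on the 3 BALB/c day 3 arrays, Marco and Il1a on the 3 DBA day 3 arrays, and Mndal is bright on all 6 BALB/c arrays.

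Outside the interferon lists, Pla2g2e had the highest positive difference of all genes. It encodes a secreted phospholipase A2 that is known from adipose tissue and skin. Its signals were 675, 547 and 325 on the BALB/c day 3 arrays, against 10.2, 10.6 and 2.5 on the BALB/c controls, and 73.5, 89.5 and 84.7 on the DBA day 3 arrays, against 75.2, 90.2 and 129.9 on the DBA controls. It rose in BALB/c and was not called in DBA (-0.18, adjusted p = 0.691), where day 3 and control arrays overlapped. DBA controls were above BALB/c controls (-1.90, adjusted p = 4.35e-05). The difference of responses was 4.18 ± 0.40 (SE; adjusted p = 1.09e-06). With BALB/c controls near 0 its size depends on the offset, and it ran from 2.54 to 6.47 over 27 alternatives, all of them called.

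A pair of kallikrein-related protease genes that are neighbours on chromosome 7 rose in BALB/c alone by the calls. Klk9 had 304, 399 and 212 on BALB/c day 3 arrays against 15, 7.2 and 2.9 on BALB/c controls, and 25.2, 43.9 and 37.6 on DBA day 3 arrays against 10.6, 8.8 and 7.1 on DBA controls. Klk8 (neuropsin) had 642, 720.1 and 489.5 against 109.7, 145 and 147 in BALB/c, and 76, 64.3 and 16.9 against 20.4, 66 and 55.9 in DBA. Their differences were 2.46 ± 0.49 (adjusted p = 0.0173) and 1.95 ± 0.39 (adjusted p = 0.0187). Klk9 lost its call without BALB/c day 3 replicate 1 (2.44, adjusted p = 0.052) and with plain log2 (adjusted p = 0.19). Klk8 lost it without BALB/c day 3 replicate 1, BALB/c control replicate 1, DBA day 3 replicate 3 or DBA control replicate 2 (1.55 to 1.91, adjusted p = 0.055 to 0.064), and also with plain log2 (2.15, adjusted p = 0.107) and in the ordinary linear model (adjusted p = 0.134).

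Myeloid and acute-phase genes were among the rest. Ms4a4c, a membrane protein gene of myeloid cells that is also induced by interferon, had signals of 1299.5, 1019 and 2988 on the BALB/c day 3 arrays, against 137, 79.3 and 73.4 on the BALB/c controls, and 249, 234 and 185 on the DBA day 3 arrays, against 57.3, 70.8 and 81.1 on the DBA controls. It differed by 2.38 ± 0.50 (adjusted p = 0.0237), and the call ended in 7 of 12 cases, at 1.92 (adjusted p = 0.080) without BALB/c day 3 replicate 3. Saa1, the acute-phase serum amyloid, rose in both strains, with 1577, 1525 and 2683 on BALB/c day 3 and 504, 370.5 and 412 on DBA day 3 arrays and at most 39.2 on the controls. Its difference of 2.20 ± 0.52 was just past the threshold (adjusted p = 0.0499), and the call ended in 11 of 12 cases (adjusted p up to 0.15) and with plain log2 (adjusted p = 0.55). Its near-identical copy Saa2 gave 2.06 ± 0.56 (adjusted p = 0.101), and the probe sets of the pair may read both. Lgals3, the galectin of macrophages, had 9830.3, 11223 and 12882 against 2331, 2197 and 2862 in BALB/c, and 10600.5, 7231 and 5917 against 5626, 3734 and 3991 in DBA, a difference of 1.38 ± 0.29 (adjusted p = 0.0237). Between the treated strains the difference was 0.55 (adjusted p = 0.104), and the DBA controls were higher (-0.83, adjusted p = 0.0108), and the call ended in 6 of 12 cases.

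Lgals3 shared this pattern with other called genes. Litaf (which moves proteins through endosomes), Abcg1 (a cholesterol exporter of macrophages), Ubash3b (a tyrosine phosphatase) and Tnfrsf21 (a death receptor) had no called difference between the treated strains and were lower in BALB/c controls than in DBA controls. Litaf had 8875, 9449 and 9612 on BALB/c day 3 arrays against 2674, 2893 and 3014 on BALB/c controls, and 9712, 8639 and 8489 on DBA day 3 arrays against 5549, 4479.8 and 4202 on DBA controls. Its differences were 0.78 ± 0.16 in response and -0.72 between the controls. Abcg1 gave 1.06 ± 0.23 and -0.69, Ubash3b 1.19 ± 0.27 and -0.79, and Tnfrsf21 1.13 ± 0.22 and -0.92. All 4 were called in both (adjusted p at most 0.0413 and 0.00893). Leaving out single arrays ended the call on the response in 7 of 12 cases for Litaf, 8 for Abcg1, 9 for Ubash3b and 2 for Tnfrsf21.

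Pttg1 encodes securin, an inhibitor of separase, the protease that lets sister chromatids part at anaphase. Pttg1 had signals of 6212, 5368 and 6503 on the BALB/c day 3 arrays, against 533, 597 and 541 on the BALB/c controls, and 1274, 916 and 824 on the DBA day 3 arrays, against 470.5, 527 and 345 on the DBA controls. It rose in both strains and by 2.26 ± 0.41 more in BALB/c (SE; adjusted p = 0.00982), with every BALB/c day 3 array above every DBA day 3 array. Ncaph, a condensin subunit, differed by 1.49 ± 0.35 (adjusted p = 0.0499), and any single array left out ended that call (adjusted p up to 0.16). For Ncaph the untreated strains differed and the treated strains were not called different. Tfrc, the transferrin receptor, moved differently: it had 3000.0, 2833 and 3519 on BALB/c day 3 arrays against 2481, 2088 and 2356 on BALB/c controls, and 1252, 1285 and 1241 on DBA day 3 arrays against 2125, 2484 and 2123 on DBA controls. It fell in DBA by 0.82 on the log2 scale (adjusted p = 0.00159) and was not called in BALB/c (0.43, adjusted p = 0.0779). The call on the difference, 1.24 ± 0.26 (adjusted p = 0.0237), ended in 8 of 12 cases.

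Genes that fell in DBA and rose in BALB/c were Pmepa1, a brake on TGF-beta signalling, Akap7, an anchor of protein kinase A, Akr1e1, an aldo-keto reductase, Mtmr10 and the clone-named 1500011B03Rik. In each the untreated DBA level was the highest of the 4 groups. The other probe set of 1500011B03Rik, with a mean signal of 422.4 against 315.0, gave a difference of 0.09 (limma, unadjusted p = 0.619). Pmepa1 had 1029, 922 and 948 on BALB/c day 3 arrays against 629, 707 and 545 on BALB/c controls, and 1581, 2004 and 1378 on DBA day 3 arrays against 3774, 2875 and 2419 on DBA controls. Its difference was 1.46 ± 0.30 (adjusted p = 0.0195), a call that ended in 4 of 12 cases. Acot3, a peroxisomal thioesterase gene, fell in DBA by 1.79 (adjusted p = 0.000276) and stayed under 103.7 on all BALB/c arrays; the call on its difference ended in 8 of 12 cases and with plain log2 (adjusted p = 0.101). Tmem86a, a lysoplasmalogenase gene, rose in BALB/c by 1.42 and gave a difference of 1.63 ± 0.30 (adjusted p = 0.0113). In Tmem86a, Acot3, Akap7, Akr1e1 and 1500011B03Rik the untreated strains differed and the treated strains were not called different.

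The 16 genes with a lower BALB/c response were led by Marco, a scavenger receptor of resident macrophages that binds bacteria and particles. Its signals were 1.5, 4.6 and 2.3 on the BALB/c day 3 arrays, against 1.4, 5.1 and 8.2 on the BALB/c controls, and 807, 809 and 404 on the DBA day 3 arrays, against 5.5, 22.8 and 12 on the DBA controls. It was bright on all 3 DBA day 3 arrays, and no BALB/c array, treated or not, passed 8.2. The difference was -4.25 ± 0.84 (SE; adjusted p = 0.0173) by the probe set used and -2.96 by the other. Leaving out BALB/c day 3 replicate 1 ended the call (-4.21, adjusted p = 0.0507), as did an offset at the median of all values (-2.71, adjusted p = 0.0516). Whether the Marco probe sets read the BALB/c form of the gene was not tested.

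Il1a, the interleukin 1 alpha gene, had signals of 32.8, 22.6 and 7.5 on the BALB/c day 3 arrays, against 3.4, 29.9 and 2.7 on the BALB/c controls, and 145, 189 and 111 on the DBA day 3 arrays, against 2.0, 6.8 and 4.8 on the DBA controls. Only the 3 DBA day 3 arrays passed 103.7, and the difference was -2.19 ± 0.41 (SE; adjusted p = 0.0114). Best1 (bestrophin 1), a chloride channel, had 267, 215 and 249 on DBA day 3 arrays and 13.8, 55 and 33.4 on DBA controls, and at most 7.0 on the BALB/c arrays of both kinds. It differed by -2.18 ± 0.35 (adjusted p = 0.00227), and the untreated strains also differed (-0.92, adjusted p = 0.0187). Whether the Best1 probe set reads the BALB/c form of the gene was not tested. The calls of Il1a and Best1 held whichever array was left out, and ended with plain log2 (adjusted p = 0.201 and 0.0974); that of Il1a also ended in the ordinary linear model (adjusted p = 0.0816).

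Rarres1, a retinoic acid responsive gene, moved in opposite directions. It had 1155, 1355 and 1148 on BALB/c day 3 arrays against 2632, 3241 and 3610.2 on BALB/c controls, and 83.7, 134 and 108 on DBA day 3 arrays against 45.9, 44.5 and 56.6 on DBA controls. BALB/c was brighter with and without treatment, and the 2 strains moved towards each other. The untreated strains differed by 5.42 ± 0.19 and the treated ones by 3.24 ± 0.19, which gave a difference of responses of -2.19 ± 0.26 (SE; adjusted p = 5.76e-05). Fcrls, an Fc receptor-like gene of resident macrophages and microglia, also moved in opposite directions. It had 408, 430.4 and 358 on BALB/c day 3 arrays against 747, 740.1 and 672 on BALB/c controls, and 1194, 1199 and 989 on DBA day 3 arrays against 508, 567 and 434 on DBA controls (difference -1.94 ± 0.36, adjusted p = 0.0113).

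The lysozyme genes rose in DBA alone by the calls. Lyz2, the lysozyme of macrophages and neutrophils, had 14164, 19432 and 20826 on BALB/c day 3 arrays against 13669.9, 15084 and 15414 on BALB/c controls, and 30014, 26564 and 22094 on DBA day 3 arrays against 10372, 10752 and 10286 on DBA controls. The DBA day 3 arrays were the highest, all above every other array, and the difference was -1.03 ± 0.21 (adjusted p = 0.0224). Lyz1 gave -1.0 ± 0.21 (adjusted p = 0.0212); it is a near-identical copy, and the probe sets may read both. The calls ended without single arrays in 7 of 12 cases for Lyz2 and 6 for Lyz1 (adjusted p up to 0.088, without BALB/c day 3 replicate 1), and for both with quantile normalization (adjusted p = 0.126 and 0.0726). Cd300ld, an activating receptor of myeloid cells, had 1308, 1005 and 832 on DBA day 3 arrays against 242, 294 and 226 on DBA controls, while BALB/c arrays stayed between 71.3 and 171. It differed by -1.46 ± 0.30 (adjusted p = 0.0207), a call that ended in 5 of 12 cases.

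Itgbl1, an integrin-like gene, fell in BALB/c by 2.04 (adjusted p = 4.87e-06) and was not called in DBA (-0.25, adjusted p = 0.573); its difference of -1.79 ± 0.41 (adjusted p = 0.0436) lost its call with any single array left out. The rest were smaller. Tardbp (TDP-43, an RNA-binding protein), Dapk1 (a death-associated kinase), Dmtf1 (a cyclin D binding transcription factor), Zfp217 and Apba3 rose in DBA and differed by -0.85 ± 0.19, -0.83 ± 0.18, -0.77 ± 0.17, -0.61 ± 0.14 and -0.71 ± 0.15. Rab10os and Klf3 differed by -0.68 ± 0.16 and -0.57 ± 0.13. Leaving out single arrays ended these 7 calls in 8 to 12 of 12 cases. Apba3 also fell in BALB/c by the calls. In Itgbl1 and in all of these 7 but Rab10os, the untreated strains differed and the treated strains were not called different. Other probe sets of Tardbp, Rab10os and Klf3 gave 0.16, 0.10, 0.10 and 0.06, without a difference by the unadjusted test. Of 46 other probe sets of called genes, 42 had the sign of the one used, 28 of them at an unadjusted p under 0.05, and these 4 had the opposite sign.

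Several leading inflammatory genes had no called difference. Arg1, the arginase of activated macrophages, had 17477, 20535 and 17891 on BALB/c day 3 arrays against 53.8, 73.3 and 53.3 on BALB/c controls, and 19001, 15065 and 8925 on DBA day 3 arrays against 9.7, 73 and 32.6 on DBA controls. The difference was -0.10 with a 95% interval of -1.96 to 1.75, wide enough to hold a several-fold difference in either direction. For Cxcl5, a chemokine that attracts neutrophils, it was 1.29 (-0.08 to 2.66), for Il6 1.09 (-0.05 to 2.23) and for Myc 0.27 (-0.30 to 0.83). None of the 4 passed the test (adjusted p = 0.535 or higher).

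Of 32 cytokine and chemokine genes, 27 rose in BALB/c and 25 in DBA, against 18.3% and 16.4% of all genes. Their responses had a median of 1.99 in both strains, and the differences had a median of 0.27. Il1a was the only one called. The monocyte chemokines had larger differences that did not pass: Ccl2 had 4798, 3188 and 5820.5 on the BALB/c day 3 arrays, against 109, 105 and 169 on the BALB/c controls, and 1304, 1383 and 904 on the DBA day 3 arrays, against 416, 161 and 102 on the DBA controls. Its difference was 2.44 ± 0.77 (adjusted p = 0.188), and Ccl7 gave 2.12 ± 0.68 (adjusted p = 0.197) and Ccl12 1.99 ± 0.67 (adjusted p = 0.231). Acute-phase and complement genes rose in 15 of 18 in BALB/c and 14 in DBA, with a median difference of 0.15. Lcn2, which withholds iron from bacteria, had log2 responses of 4.28 in BALB/c and 3.07 in DBA (difference 1.21 ± 0.61, adjusted p = 0.528).

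Monocyte and macrophage markers rose in 20 of 24 genes in BALB/c (median 2.13) and 23 in DBA (median 2.04), against 18.3% and 16.4% of all genes. Their median difference was -0.01, and Ms4a4c was called higher and Marco, Lyz2 and Cd300ld lower. These are 16.7% of the list, whereas 0.369% of all genes were called higher and 0.123% lower. The mean log2 signal of that list was 11.1 to 11.5 on BALB/c day 3 arrays and 10.9 to 11.6 on DBA day 3 arrays, which overlapped. Clec4n (dectin-2), a receptor for fungal mannans, had log2 responses of 2.09 in BALB/c and 3.36 in DBA, and missed the threshold narrowly (-1.26 ± 0.31, adjusted p = 0.0549). Mmp12, the macrophage elastase, had 336, 453 and 462 on BALB/c day 3 arrays and 4987, 2841 and 1483 on DBA day 3 arrays, with at most 37.1 on controls, and a difference of -2.15 ± 0.70 (adjusted p = 0.213).

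Neutrophil markers rose in 14 of 19 genes in BALB/c and 11 in DBA, against 18.3% and 16.4% of all genes. They had a median difference of 0.45 that turned to -0.19 without BALB/c day 3 replicate 2. Their mean log2 signal was 9.45, 9.99 and 9.09 on BALB/c day 3 arrays and 9.29, 9.55 and 8.66 on DBA day 3 arrays, overlapping ranges. Among resident and alternatively activated macrophage markers 16 of 19 rose in BALB/c and 15 in DBA. Chil3, a chitinase-like secreted protein, had 3036, 4266 and 2155 on BALB/c day 3 arrays and 1268, 804 and 392 on DBA day 3 arrays, and its difference of 2.50 ± 0.60 missed the threshold narrowly (adjusted p = 0.0541). Gata6, the factor of resident peritoneal macrophages and also of mesothelium, gave -0.73 ± 0.17 (adjusted p = 0.0525), with log2 responses of 0.41 in BALB/c and 1.14 in DBA.

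Lymphoid lists had 0 called differences by limma. T and NK cell markers had a median difference of 0.49 (3 of 20 at an unadjusted p under 0.05), or 0.17 without BALB/c day 3 replicate 3, the array that was also highest in interferon-induced genes. Their mean log2 signal was 7.16, 7.02 and 7.62 on BALB/c day 3 arrays and 6.93, 7.04 and 6.92 on DBA day 3 arrays, and its part in the interferon result was not tested. B cell markers had a median of -0.39 (3 of 12 unadjusted) and plasma cell markers 0.10 (2 of 15 unadjusted). Mzb1, a chaperone of antibody secretion, had log2 responses of 2.35 in BALB/c and 1.0 in DBA (difference 1.36 ± 0.42, adjusted p = 0.173).

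Proliferation genes rose in both strains, 39 of 40 in BALB/c (median 2.23) and 32 in DBA (median 1.41), against 18.3% and 16.4% of all genes. The difference was positive in 39 of 40, with a median of 0.91 against -0.01 over all genes, but 0 were called by limma and 23 had an unadjusted p under 0.05. The mean log2 signal of the list was 9.50, 9.46 and 9.39 on BALB/c day 3 arrays, against 7.13, 7.19 and 7.17 on BALB/c controls, and 9.22, 8.98 and 8.77 on DBA day 3 arrays, against 7.98, 7.65 and 7.27 on DBA controls. DBA controls were above BALB/c controls and spread more widely, and DBA day 3 arrays were below BALB/c day 3 arrays. Mki67, a marker of cycling cells, had signals of 2510.1, 2191 and 2012 on the BALB/c day 3 arrays, against 97.4, 88.3 and 104 on the BALB/c controls, and 1597, 1319.5 and 1043 on the DBA day 3 arrays, against 318, 332 and 151 on the DBA controls. This gave a difference of 1.96 ± 0.64 (adjusted p = 0.208).

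Adipocyte identity genes fell in 16 of 21 in BALB/c (median -1.45) and in 3 in DBA (median -0.51). Of all genes 17.2% fell in BALB/c and 13.4% in DBA, so the DBA count was near the share of all genes. The adipocyte genes had a median difference of -0.84, with 0 called by limma and 6 at an unadjusted p under 0.05. Their mean log2 signal was 11.2, 11.3 and 11.2 on BALB/c day 3 arrays, against 12.3, 12.9 and 12.5 on BALB/c controls, and 12.3, 12.4 and 12.6 on DBA day 3 arrays, against 13.2, 12.8 and 12.9 on DBA controls. BALB/c day 3 arrays were the lowest, below every other array. Pck1, which feeds glycerol synthesis in fat, had 533, 598 and 619 on BALB/c day 3 arrays against 3720.4, 4776 and 1772 on BALB/c controls, and 6702, 8900.4 and 8603 on DBA day 3 arrays against 8944, 8138 and 8741 on DBA controls. Its difference of -2.29 ± 0.69 did not pass (adjusted p = 0.163). Of 20 lipid synthesis genes 13 fell in BALB/c and 12 in DBA (medians -1.18 and -1.06).

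Markers of tissues that can be taken along with mesentery moved with single arrays. Pancreatic acinar markers had a median difference of 1.42 with 0 of 12 called by limma and 0 at an unadjusted p under 0.05, and 0.50 without BALB/c day 3 replicate 2. Ctrb1, a digestive protease gene, had 1185 there and at most 64.5 on the other 11 arrays. Intestinal epithelial markers had a median of 0.59 (0 of 13 called by limma, 0 unadjusted), and 0.02 without DBA control replicate 3. Their mean log2 signal was 8.14 on that array, 6.83 on DBA control replicate 2 and 5.82 to 7.0 on the others. Without BALB/c day 3 replicate 2, 49 of the 64 calls remained, and without DBA control replicate 3, 41 did.

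**Figure D4:**
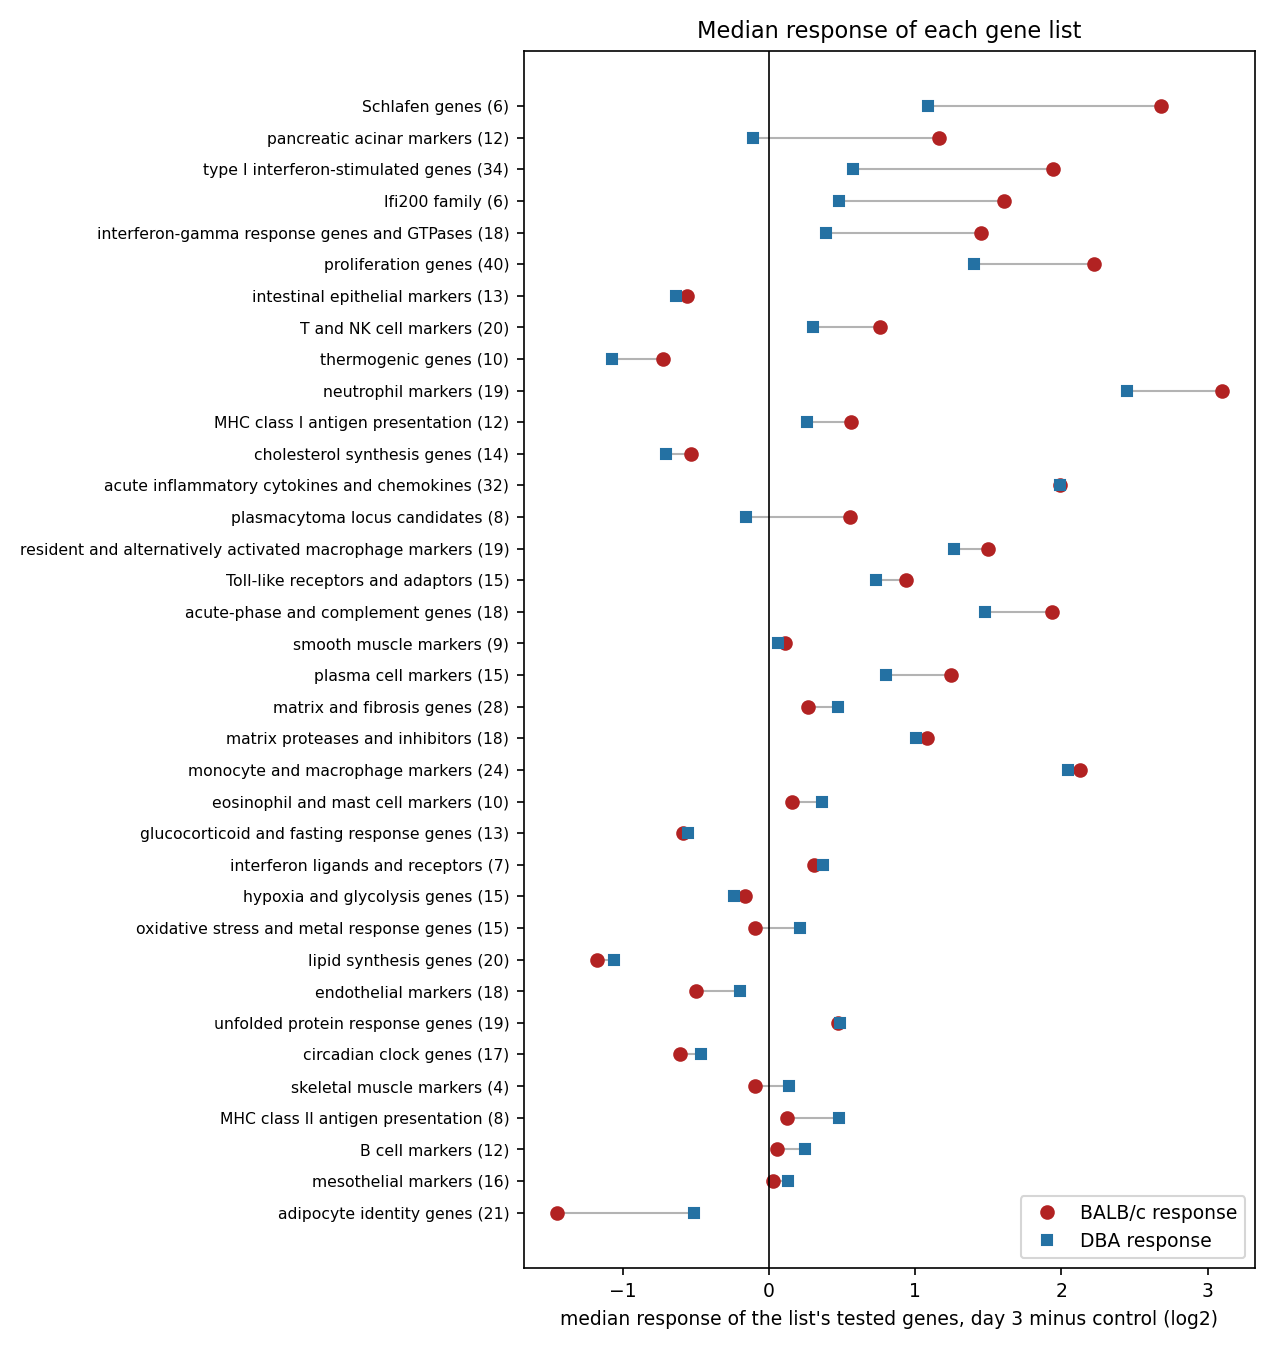
Median log2 response (day 3 minus control) of the tested genes of each of 36 lists, in BALB/c (red circles) and DBA (blue squares), with the number of tested genes in brackets and lists sorted by the median difference. The 4 interferon lists lie at 1.45 to 2.68 in BALB/c and 0.39 to 1.08 in DBA, and adipocyte identity genes at -1.45 and -0.51; the cytokine list lies at 1.99 in both strains.

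Arrays of F1 hybrid mice at day 3, which share no array with the comparison, showed how the called genes moved in a cross of both strains. Of the 64 genes, 42 rose in F1, against 18.6% of all genes, and 5 fell, against 2338 of all 13016 genes. Of the 34 type I interferon-stimulated genes 32 rose, with a median of 3.32, and the F1 value was above the BALB/c value in 32 of 34. This difference between F1 and BALB/c was not tested, and the share of all genes with a higher value in F1 was not counted. Usp18 had 5821, 4754 and 5112 on F1 day 3 arrays against 265, 269.7 and 252 on F1 controls. Oas3 had 2862, 2935 and 3124 against 129.8, 18.3 and 22, Ifi44l 2890.2, 1669.5 and 2426 against 47, 41.7 and 50.8 and Marco 489, 203 and 289 against 4.8, 9.4 and 7.9. All 4 of these genes were higher on every F1 day 3 array than on every F1 control. The F1 day 3 arrays were bright in Xist (15960.4, 16808 and 12294) and the F1 controls dim (106, 55 and 107), whereas all arrays of the parental comparison were bright, and its part in the F1 values was not tested.

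At day 18, on other arrays and with other controls (4 of each in BALB/c, 3 of each in DBA), 131 genes had a response that differed between the strains (1.01% of all genes), 4 of the 64 among them: Ifi44l higher, and Marco, Best1 and Rarres1 lower, each with the sign seen at day 3. The day 18 arrays of the strains carry codes of different series, so strain and code series cannot be told apart there. Marco had 22.7, 5.2, 61.5 and 11.7 on BALB/c day 18 arrays against 4.7, 33.3, 4.8 and 6.1 on their controls, and 4052, 207 and 938 on DBA day 18 arrays against 15.4, 61.9 and 62.3 on theirs. As at day 3 it passed 103.7 on DBA arrays alone, on all 3 of the treated ones. Best1 had at most 12.2 on BALB/c arrays of the day 18 code series, and 334, 616 and 420.2 on DBA day 18 arrays against 19.4, 55.2 and 31.5 on DBA controls. Ifi44l was at most 12.5 on all 6 DBA arrays, and on BALB/c arrays it was 1988 to 3921 at day 18 against 9.4 to 240.5 on controls.

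The sign at day 18 was counted for the interferon genes and the rest, without a test. Of the 16 called genes in an interferon list 1, Oas3, had the same sign at day 18, and the median day 18 difference was -0.53. Of the other 48, 38 had the same sign. The share of all tested genes with the same sign on both days was not counted, so neither count has a baseline. Over the whole type I list the day 18 difference had a median of -0.53, since the list rose in both strains, by a median of 2.29 in BALB/c and 2.81 in DBA. Usp18 had a difference of -0.70 ± 0.39 at day 18 (adjusted p = 0.372), against 2.95 at day 3. The change between the days was not tested. Across the 64 genes Pearson's r between the days was 0.542, 0.582 over the 16 and 0.731 over the other 48; genes are not independent replicates, and the strains' own differences enter both days.

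**Figure D5:**
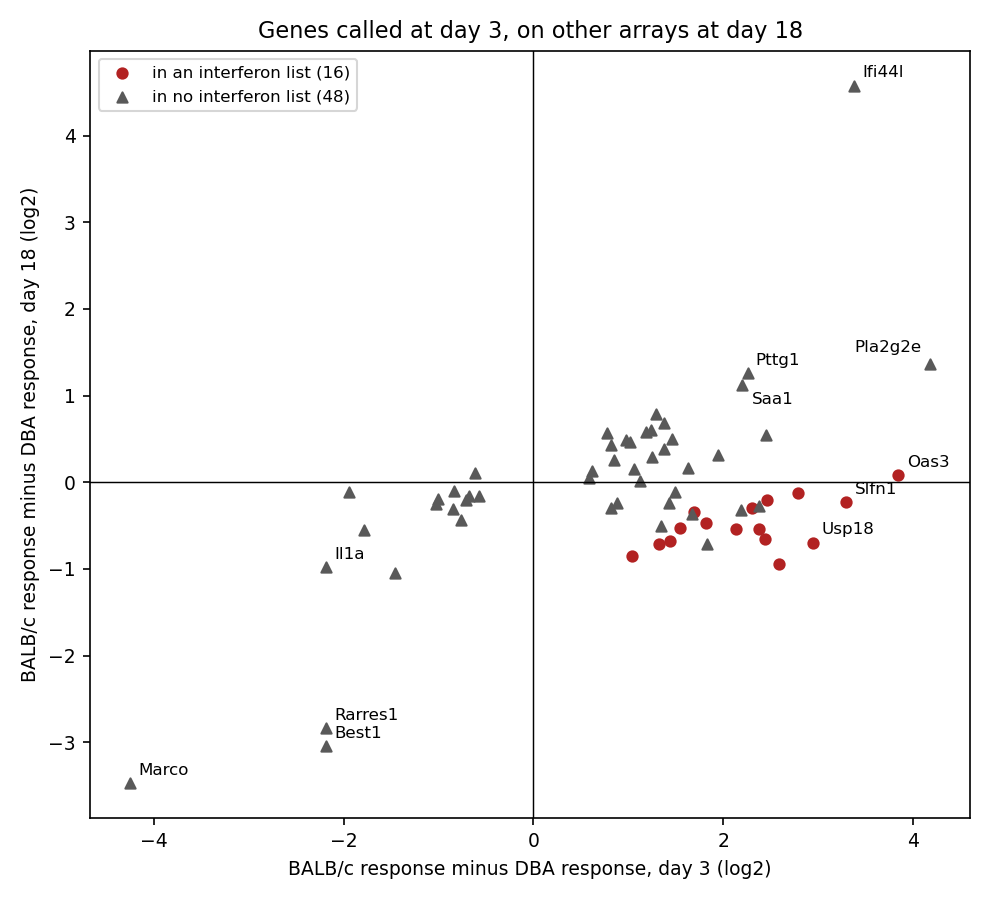
Difference of responses (BALB/c minus DBA, log2) at day 3 on the horizontal axis and at day 18 on the vertical axis for the 64 genes called at day 3, each axis from its own arrays. Of the 16 genes in an interferon list (red circles) 15 lie below 0 at day 18; Marco, Best1, Rarres1 and Ifi44l lie farthest from 0 at day 18, at -3.47, -3.04, -2.84 and 4.58.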

How the data were processed

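Total RNA of mesentery was hybridised to single-colour Affymetrix mouse arrays. The deposited intensity values are 1 signal per probe set and array, made by the authors with GCOS and MAS5, per the submitters' processing notes; versions and scaling target are not given in the sources used here. Of the 45101 probe sets, 34945 had 1 gene symbol and could be used, 932 had several and 9211 none. Array controls, 64 in all, were left out; 13 of them carried 1 symbol and are not in the 34945, and the rest are counted among the other classes. Signals were taken as log2(signal + 24.9), the 25th percentile of all values, with 13 values at 0, and 27074 probe sets above the median of all values, 103.7, on at least 3 arrays were kept. The brightest probe set with 1 symbol stood for each gene, which left 13016 of 18193 genes. limma 3.58.1 in R 4.3.3 fitted all 32 arrays with a mean per group and an intensity trend, moderated over genes, and p-values were adjusted by Benjamini-Hochberg over all genes tested. A call is an adjusted p under 0.05.

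The genes named are the 12 largest positive and 12 largest negative called differences above the median signal, up to 4 members of each of 36 lists (674 symbols, 575 tested) with the largest absolute difference, the Ifi200 family, Arg1, Cxcl5, Il6, Myc and the interferon receptor chains; clone-named and sex-linked genes were skipped. Irf7, Ifi27l2a, Ctrb1, 1500011B03Rik, further called genes and some further list members were named after their values were seen. The comparison, genes and lists were chosen with earlier results of these data known. Alternatives changed the offset, dim filter, normalization, arrays in the fit, variance model, probe sets per gene and a term for Xist, and left out each array in turn. The scripts were tested on simulated data. Promoters are RefSeq's, on GRCm38.p6.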

Additional observations from a re-analysis of the deposited data

Results flagged for a closer look

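A test of the difference itself, BALB/c response minus DBA response, picked out 48 genes as higher and 16 as lower in BALB/c, with 13 type I interferon-stimulated genes among the higher ones. The differences that follow are on the log2 scale, each from 3 arrays per group, and every one had an adjusted p under 0.05 (limma). The highest values were Pla2g2e 4.18, Oas3 3.85, Ifi44l 3.38, Slfn1 3.30, Usp18 2.95, Rsad2 2.79, Ifit1 2.59, Dhx58 2.46, Klk9 2.46, Ifit3 2.44, Ms4a4c 2.38, Oas2 2.38, Ifi209 2.30, Pttg1 2.26, Saa1 2.20 and Acot3 2.19. The next were Oasl1 2.13, Klk8 1.95, H2-T24 1.83, Oas1a 1.82, Trim30a 1.70, Helz2 1.67, Tmem86a 1.63, Rtp4 1.54, Ncaph 1.49, Pmepa1 1.46, Ifi47 1.44, Gm20559 1.43, Lgals3 1.38, Aldoc 1.38, Agtrap 1.34 and Oasl2 1.33. The remaining higher ones were Gadd45b 1.29, 1500011B03Rik 1.25, Tfrc 1.24, Ubash3b 1.19, Tnfrsf21 1.13, Abcg1 1.06, Ddx58 1.03, Akap7 1.02, Cdc14b 0.98, Akr1e1 0.88, Mtmr10 0.85, Tnfrsf4 0.82, Trim25 0.82, Litaf 0.78, Pde6d 0.62 and Mrps25 0.59. The lower ones were Marco -4.25, Il1a -2.19, Rarres1 -2.19, Best1 -2.18, Fcrls -1.94, Itgbl1 -1.79, Cd300ld -1.46, Lyz2 -1.03, Lyz1 -1.0, Tardbp -0.85, Dapk1 -0.83, Dmtf1 -0.77, Apba3 -0.71, Rab10os -0.68, Zfp217 -0.61 and Klf3 -0.57.

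Single arrays far from their group were looked for only among the BALB/c day 18 arrays and their controls, 4 of each. No array of the day 3 comparison was checked in this way. One sample stood far from the others of its group: Marco was at 5.86 (log2 of signal plus 24.9) on BALB/c control array replicate 2 of the day 18 code series. It was above the other 3 controls of that group, but its signal of 33.3 was dim, near the offset of 24.9. Chance alone picks out about 5% of groups by this measure, and Marco on that array is not part of the day 3 comparison.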

How the results depend on the processing

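No called gene changed sign under any alternative. The 48 higher genes became 220 with the 12 arrays alone, 195 with the 18 arrays of the code series, 22 in the ordinary linear model, 478 with array weights and 131 without the day 18 code series array with high acinar markers (chosen after seeing the data), and 17 to 57 with 1 of the 12 arrays left out. The 16 lower genes became 173, 131, 32, 451 and 69 under the same settings, 9 with plain log2, 26 with every probe set singly, and 5 to 15 with 1 array left out. The 13 type I interferon-stimulated genes became 24, 26, 4, 27 and 20, and 6 to 16 with 1 array left out. With 1 array left out, BALB/c responses gave 2045 to 2365 higher and 1781 to 2236 lower genes, and DBA responses 1529 to 2115 higher and 1064 to 1727 lower, against 2753 lower with array weights. Of the 64 calls the ordinary linear model kept 18 and plain log2 45. The cause of each change was not tested. Other settings of offset, dim filter, normalization, trend and probe sets, and a term for high or low Xist, kept these counts within 1.5 times. No paired analysis was possible because the replicate numbers follow accession order and pair no arrays. Values near or below 24.9 are close to background, so sizes of changes from dim controls depend on the offset.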
